A study of Mus musculus with 15 samples.

Results

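The genes described here are a small group of secreted signals, 8 chemokines and 2 cytokines of the interleukin-6 (IL-6) family. Their transcripts were followed in cultured mouse retinal pigment epithelial cells (mRPE) and in mouse RPE/choroid, each with samples labelled WT or *Prom1* knockout (KO). They were chosen by symbol. The chemokines are *Cxcl1*, *Cxcl2*, *Cxcl3*, *Cxcl5*, *Cxcl12*, *Ccl2*, *Ccl7* and *Cx3cl1*, and the cytokines are *Il6* and *Lif*. All 10 were among the 20910 genes listed in the mRPE count table. Of the 10, 8 were among the 25038 genes listed for RPE/choroid, and *Cxcl3* and *Il6* were not analysed here in that tissue. Poly(A) RNA was sequenced from 15 libraries, 9 of mRPE and 6 of RPE/choroid.

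The mRPE line came from pooled RPE of C57BL/6J mice, was immortalised with the human papillomavirus genes E6 and E7, and grew in a medium that contained hydrocortisone, a glucocorticoid. Cells that stably carried Cas9 under puromycin selection were transfected with a guide RNA against an exon of *Prom1*, and the labels name 2 *Prom1*-KO lines, KO22 (3 libraries) and KO26 (2 libraries), beside the WT line (4 libraries). Whether the sequenced WT cells had received a scrambled guide is not given in the sources used here. Each group is 1 line, so a difference between genotypes and a difference between lines cannot be told apart, and nothing in the labels says that libraries of a line came from separate cultures, so p-values measure the spread between these libraries, which may be technical. The library names belong to 2 series, 8995 and 9262, which the study treated as sequencing batches. Series 8995 holds replicate 1 of each group (3 libraries), and series 9262 holds the other 6 libraries. The RPE/choroid libraries are 3 of WT mice and 3 labelled *Prom1*-KO, from mice with *Prom1* fl/fl alleles and RPE65-Cre that received tamoxifen by gavage to delete *Prom1* in the RPE. Choroid, with its vessels, fibroblasts, melanocytes and immune cells, is part of that tissue. The methods give 6 to 8 weeks as the age of the project's mice and 8 to 12 weeks for those that gave the mRPE cells, while the age at tamoxifen or collection of these libraries is not given in the sources used here. The genotype and tamoxifen treatment of the WT mice are not stated beyond WT.

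Chemokines are small secreted proteins that draw leukocytes along a gradient by binding receptors with a G protein on the other side of the membrane. *Cxcl1*, *Cxcl2*, *Cxcl3* and *Cxcl5* encode ligands of the receptor Cxcr2, through which neutrophils are recruited. *Ccl2* and *Ccl7* encode ligands of Ccr2 on monocytes, *Cx3cl1* encodes fractalkine, which is anchored in the membrane and binds Cx3cr1 on microglia and macrophages, and *Cxcl12* encodes the ligand of Cxcr4 and of the scavenging receptor Ackr3. Interleukin-6 and leukemia inhibitory factor (LIF) both signal through gp130, the product of *Il6st*, with Il6ra or Lifr as partner, to the JAK kinases and STAT3. The RPE, which forms the outer blood-retina barrier, is a known source of several of these signals.

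The genes lie on few chromosomes. In GRCm39, the build of the files, *Cxcl5*, *Cxcl3*, *Cxcl1* and *Cxcl2* stand in a cluster on chromosome 5, all on the plus strand, with *Cxcl5* at chr5:90907186-90909483, *Cxcl3* at chr5:90933962-90937459, *Cxcl1* at chr5:91039094-91040974 and *Cxcl2* at chr5:91051730-91053797. *Il6* is also on chromosome 5, at chr5:30218112-30224979. *Ccl2* at chr11:81926397-81928279 and *Ccl7* at chr11:81936532-81938351 are neighbours on chromosome 11, and *Lif* is at chr11:4207557-4222514. *Cxcl12* is at chr6:117144945-117158328 and *Cx3cl1* at chr8:95498637-95509055. *Il6*, *Cxcl5* and *Cx3cl1* each overlap an annotated gene on the other strand (*Gm42450*, *Gm72413* and *1700121C10Rik*). Counts of genes in the *Cxcl1*, *Cxcl2* and *Cxcl3* family, which resemble each other in sequence, could be split by the counting and are uncertain to that extent.

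RefSeq promoter windows on GRCm38.p6, an older build than that of the files, were given for 7 of the 10 genes. In the 250 bases before the transcription start, the letters GGANTTTCC, a kappaB-like motif searched on both strands, were present in 4 of the 7 (*Cxcl1*, *Cxcl2*, *Cxcl3* and *Il6*), and in 1.07% of all 32851 windows. *Cxcl5*, *Ccl2* and *Ccl7* had no window, so the motif was not looked for in 3 of the 4 genes that were not called in KO22. The last 150 bases before the start are shown for the 4 genes with a match, with the motif in capitals, and for *Lif* and *Cxcl12*, in whose windows these letters were not found. The windows are chr5:90891095-90891244 for *Cxcl1*, chr5:90903749-90903898 for *Cxcl2*, chr5:90785951-90786100 for *Cxcl3*, chr5:30012964-30013113 for *Il6*, chr11:4257418-4257567 for *Lif* and chr6:117168385-117168534 for *Cxcl12*, all on the plus strand and 5′ to 3′.
Cxcl1: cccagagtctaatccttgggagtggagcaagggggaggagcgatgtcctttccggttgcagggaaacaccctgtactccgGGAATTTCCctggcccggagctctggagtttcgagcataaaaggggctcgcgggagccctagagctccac
Cxcl2: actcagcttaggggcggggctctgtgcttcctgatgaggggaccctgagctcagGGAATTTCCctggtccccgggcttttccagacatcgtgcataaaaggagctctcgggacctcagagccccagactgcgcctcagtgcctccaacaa
Cxcl3: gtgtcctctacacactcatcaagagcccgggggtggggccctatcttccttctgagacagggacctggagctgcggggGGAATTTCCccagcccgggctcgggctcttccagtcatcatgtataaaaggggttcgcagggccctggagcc
Il6: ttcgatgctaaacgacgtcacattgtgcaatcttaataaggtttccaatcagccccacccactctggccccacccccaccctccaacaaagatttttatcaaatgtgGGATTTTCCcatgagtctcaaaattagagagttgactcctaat
Lif: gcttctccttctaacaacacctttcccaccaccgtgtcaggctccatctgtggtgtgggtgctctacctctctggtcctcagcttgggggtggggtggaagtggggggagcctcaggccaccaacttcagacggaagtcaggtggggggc
Cxcl12: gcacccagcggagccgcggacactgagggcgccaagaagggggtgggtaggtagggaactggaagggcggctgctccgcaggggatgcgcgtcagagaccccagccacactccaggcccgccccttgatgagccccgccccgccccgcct
The match was GGAATTTCC in the 3 Cxcl genes, 70 to 62 bases before the start in *Cxcl1*, 96 to 88 in *Cxcl2* and 72 to 64 in *Cxcl3*, and GGATTTTCC 43 to 35 bases before the start in *Il6*. The AP-1-like letters TGANTCA were found in *Il6* and *Lif* (6.75% of all windows), both farther from the start than the bases shown, and the C/EBP-like letters TTNNGCAA in *Il6* (9.56%). The STAT-like letters TTCNNNGAA were found in 0 of the 7 windows (7.02% of all). A match of letters is a description of the window and was not tested as a binding site.

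The libraries held 8076188 to 27537863 counts in mRPE and 48154444 to 61766179 in RPE/choroid. *Prom1* was not analysed here in mRPE, so its counts give no check of the KO22 and KO26 labels. In RPE/choroid *Prom1* was at 48.7, 49.6 and 53.3 CPM (counts scaled to library size) in WT and at 49.9, 48.1 and 35.5 CPM in *Prom1*-KO, a difference that did not pass the test (log2 fold change -0.18 ± 0.158 SE, adjusted p = 0.824, edgeR). Markers showed what the samples held. In mRPE 5 of 6 RPE markers (*Rpe65*, *Rlbp1*, *Rgr*, *Ttr* and *Lrat*) were not listed or at most at 3 counts in every library, while the fibroblast marker *Col1a1* was at 1148 to 7595 CPM; 4 of 6 macrophage markers, among them *Ptprc*, and 4 of 5 neutrophil markers were likewise not listed or at the floor. In RPE/choroid all 6 RPE markers were listed, and *Rpe65*, the retinoid isomerase that defines the RPE, was at 204 to 287 CPM in WT and 1.13 to 5.98 CPM in *Prom1*-KO. Replicate 3 of the *Prom1*-KO tissue stood apart, with 84.2% of its counts on mitochondrially encoded genes, where the other 5 tissue libraries had 64.9 to 71.3%.

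Levels of the 10 genes in mRPE, given per kilobase of exon so that genes can be set side by side, spanned more than 3 orders of magnitude in WT. *Cxcl5* (162 ± 88.2 CPM per kb, SD, n = 4), *Ccl2* (155 ± 61.9), *Ccl7* (124 ± 31.5) and *Cxcl12* (118 ± 8.48) were the most abundant and did not differ from each other beyond their spread. *Cxcl1* followed at 18.3 ± 5.28, then *Cx3cl1* at 3.36 ± 0.279, *Il6* at 2.23 ± 1.07 and *Lif* at 1.02 ± 0.188. *Cxcl2* (0.319 ± 0.214) and *Cxcl3* (0.0427 ± 0.0455) were barely detected. In KO22 *Ccl2* led at 261 ± 90.4 CPM per kb (SD, n = 3), *Cxcl1* stood beside *Cxcl5* (122 ± 82.1 and 121 ± 64.4), and *Cxcl12* had moved down to sixth place, at 17.7 ± 4.46. In RPE/choroid *Cxcl12* was the most abundant of the 8 genes listed in both groups, at 5.00 ± 1.35 CPM per kb in WT and 5.35 ± 1.27 in *Prom1*-KO (SD, n = 3 each).

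**Figure D1:**
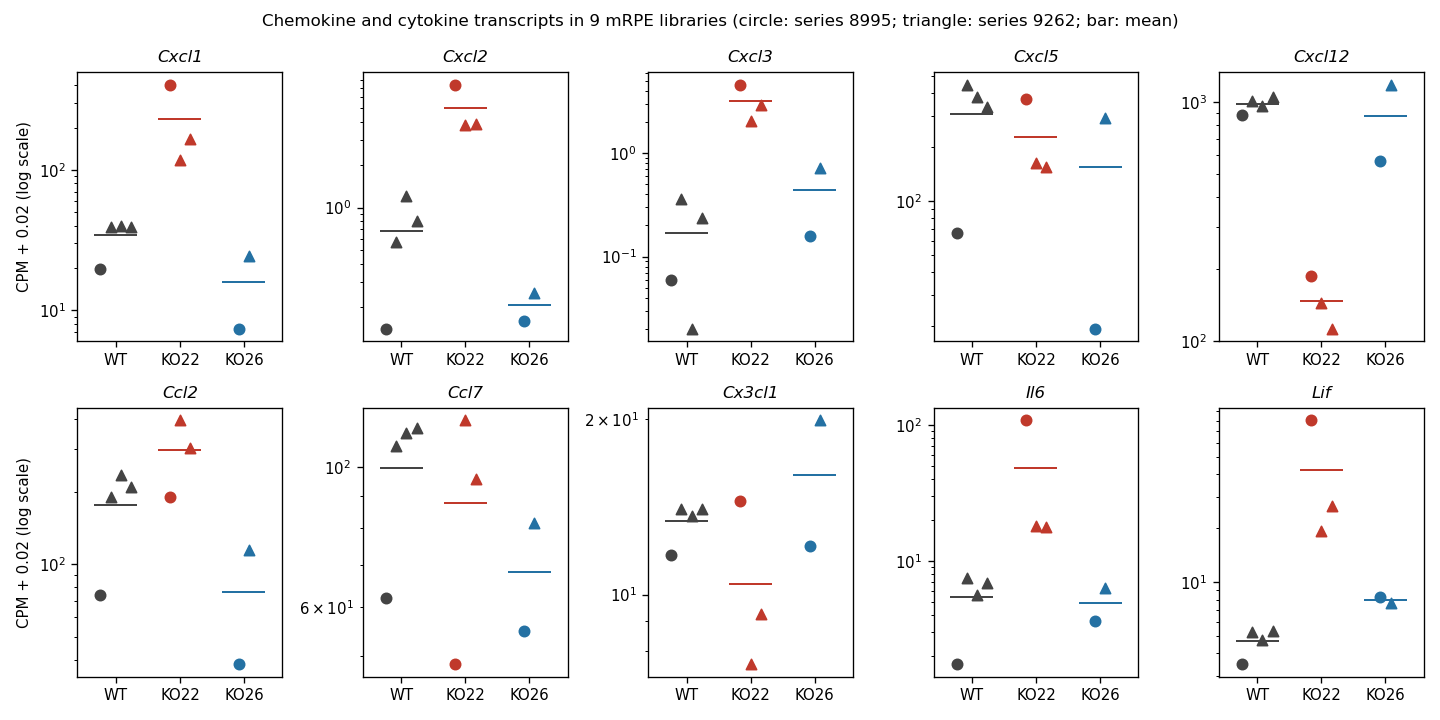
CPM of each gene in the 9 mRPE libraries on a log axis, with 0.02 CPM added so that a value of 0 can be drawn. Circles are series 8995, triangles series 9262 and bars group means; the KO22 points of Cxcl1, Cxcl2, Cxcl3, Il6 and Lif lie above every WT point, and those of Cxcl12 below.

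KO22 mRPE had more transcript of the neutrophil-recruiting chemokines *Cxcl1*, *Cxcl2* and *Cxcl3* and of both IL-6 family cytokines than WT, and less *Cxcl12*. Of the 10 genes, 5 rose and 1 fell past both limits, a log2 fold change beyond 1.2 in either direction and an adjusted p below 0.05 (edgeR, library series as a term). Of all 20455 genes tested, 11.4% were called higher and 13.8% lower at the same limits. The median log2 fold change of the 10 genes was 1.74, beside -0.03 over all genes tested.

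*Cxcl1*, a Cxcr2 ligand, was at 19.6, 39.3, 39.8 and 39.2 CPM in the WT libraries 1 to 4 and at 405, 117 and 165 CPM in the KO22 libraries 1 to 3. Every KO22 library was above every WT library, and the gap was widest in series 8995, where WT was lowest and KO22 highest. The log2 fold change was 2.56 ± 0.425 (SE), a 5.89-fold rise (adjusted p = 0.000811, edgeR).

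*Cxcl2*, the neighbour of *Cxcl1* on chromosome 5, was far less abundant. It was at 0.119, 0.548, 1.18 and 0.790 CPM in WT, which stood for 3 to 12 counts a library, and at 7.34, 3.81 and 3.88 CPM in KO22. The groups did not overlap, and the rise was 3.08 ± 0.556 on the log2 scale (adjusted p = 0.00133). *Cxcl3*, also a Cxcr2 ligand, was near the detection limit in WT, with 1, 5, 0 and 3 counts in libraries 1 to 4. KO22 had 53, 42 and 37 counts, or 4.58, 2.03 and 2.87 CPM. From the 132 counts of KO22 and the 9 of WT, scaled by library size, KO22 was 20.7-fold higher (95% interval 10.6 to 46.3, which covers counting error only), and the fitted log2 fold change was 4.33 ± 0.617 (adjusted p = 0.000322).

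*Cxcl5*, the most abundant Cxcr2 ligand of WT mRPE, did not follow the other 3. It was at 66.7, 447, 383 and 334 CPM in WT and at 371, 164 and 154 CPM in KO22, so the groups overlapped and the difference pooled over the series was -0.30 ± 0.660 on the log2 scale (adjusted p = 0.73). The 2 library series pointed opposite ways, as described with the series below. Over both it is not possible to give *Cxcl5* a direction.

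*Cxcl12*, the Cxcr4 ligand, had the most even WT values of the 10 genes, 888, 1016, 968 and 1051 CPM. In KO22 it was at 186, 144 and 112 CPM, well below every WT library. It fell by 2.77 ± 0.183 on the log2 scale (adjusted p = 3.89e-06), and it fell in each series taken alone.

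The monocyte-attracting chemokines differed from each other. *Ccl2* was at 74.6, 189, 234 and 208 CPM in WT and at 191, 396 and 303 CPM in KO22. Within each series the KO22 libraries were above the WT libraries, although across series they overlapped. The log2 fold change of *Ccl2* was 0.91 ± 0.16 (adjusted p = 0.00112), under the limit on fold change. *Ccl7*, its neighbour on chromosome 11, was at 61.9 to 116 CPM in WT and at 48.6 to 119 CPM in KO22, and did not pass the test (-0.15 ± 0.117, adjusted p = 0.312). *Cx3cl1* did not pass it either (-0.41 ± 0.217, adjusted p = 0.136), with 11.7 to 14 CPM in WT and 14.4, 7.58 and 9.23 CPM in KO22. *Cx3cl1* lies on chromosome 8, over whose 1089 genes tested the median log2 fold change in KO22 was 0.60, and *Cxcl12* on chromosome 6, with a median of -0.45 over 1082 genes, while chromosomes 5 and 11 had medians of -0.11 and -0.03; the part of these shifts in the 2 genes' values was not tested.

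*Il6* was low in WT, at 1.71, 7.47, 5.59 and 6.89 CPM, and reached 109, 18 and 17.7 CPM in KO22. All KO22 libraries were above all WT libraries, and replicate 1 of KO22, the library of series 8995, was far above the other KO22 libraries. The log2 fold change was 2.6 ± 0.737 (adjusted p = 0.0145), and 1.42 without that library. *Lif*, which encodes the cytokine that binds Lifr, was at 3.46, 5.28, 4.71 and 5.31 CPM in WT and at 80.6, 19.2 and 26.7 CPM in KO22. *Lif* rose by 2.88 ± 0.410 on the log2 scale (adjusted p = 0.000323), with replicate 1 again the highest.

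**Figure D2:**
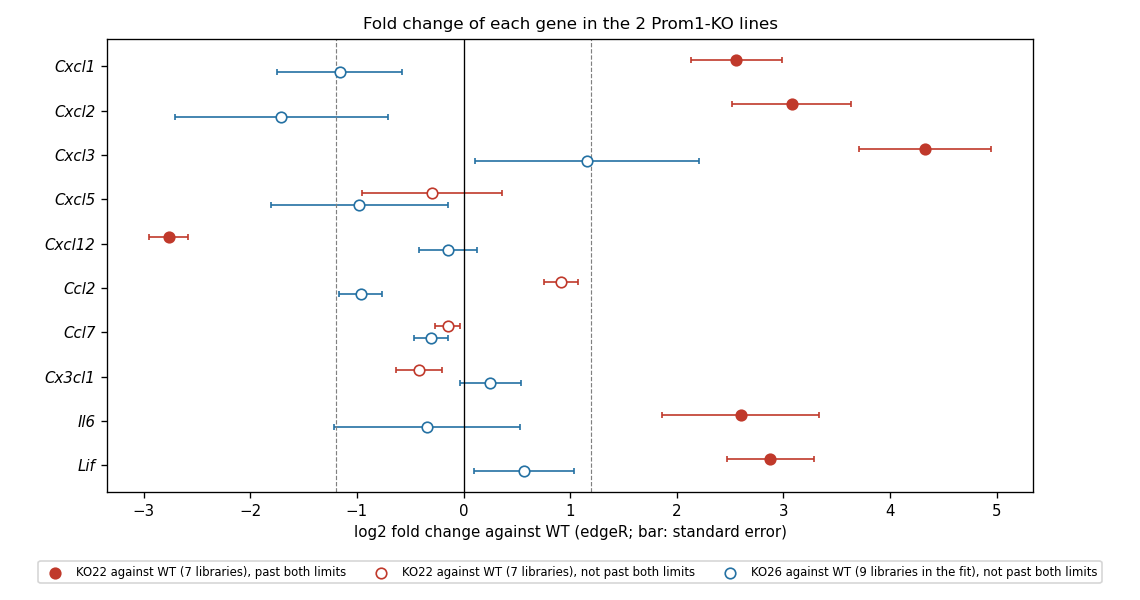
Log2 fold change against WT for each gene in KO22 (red) and KO26 (blue), with the standard error as the bar and the limits of 1.2 as dashed lines. Filled points passed both limits: Cxcl1, Cxcl2, Cxcl3, Il6, Lif and Cxcl12 in KO22, and no gene in KO26.

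The other *Prom1*-KO line, KO26, did not have this pattern. The study set both libraries of this line aside as outliers, and they are kept here because the labels make them a group of their own. In KO26 0 of the 10 genes passed both limits in either direction (edgeR, 0 also with DESeq2), where 1.92% of all 20737 genes did with edgeR. At an unadjusted p under 0.05 (edgeR) was 1 of the 10, beside 20.1% of all genes. The median log2 fold change of the 10 genes was -0.32, beside 0.03 over all genes. The gene at the smallest p was *Ccl2*, at 38.3 and 115 CPM in KO26 libraries 1 and 2, each below the WT libraries of its own series (-0.97 ± 0.200, adjusted p = 0.0291, under the limit on fold change). *Cxcl1* was at 7.33 and 24.2 CPM (-1.16 ± 0.586, adjusted p = 0.299), also below the WT libraries of the same series. *Il6* at 3.57 and 6.25 CPM (-0.34 ± 0.869, adjusted p = 0.856) and *Cxcl12* at 567 and 1187 CPM (-0.15 ± 0.272, adjusted p = 0.796) did not pass, *Il6* within the WT range and *Cxcl12* once below and once above it. *Lif* was at 8.21 and 7.63 CPM, above all 4 WT libraries and below all KO22 libraries, without passing the test (0.56 ± 0.470, adjusted p = 0.534). *Cxcl5* was at 19.3 and 290 CPM (-0.98, adjusted p = 0.542), and *Cxcl2* was at the floor of 3 counts or fewer, with 3 and 2 counts (-1.71, adjusted p = 0.363). The remaining values were -0.30 for *Ccl7* (adjusted p = 0.312), 0.25 for *Cx3cl1* (adjusted p = 0.656) and 1.16 for *Cxcl3* (adjusted p = 0.57).

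The lines were also compared with each other in the fit over all 9 libraries, which tests directly whether they differ. KO22 was higher than KO26 in 6 of the 10 genes and lower in 1, beside 7.56% of all genes higher and 10.7% lower. *Cxcl1* differed by 3.95 ± 0.685 on the log2 scale (adjusted p = 0.00149) and *Ccl2* by 1.90 ± 0.214 (adjusted p = 0.000107). *Cxcl2* was 28.6-fold higher in KO22 from 214 counts against 5 (95% interval 12.1 to 89.0, counting error only; adjusted p = 0.00167). *Cxcl3* (3.21 ± 0.813, adjusted p = 0.0115), *Il6* (3.21 ± 0.920, adjusted p = 0.0208) and *Lif* (2.37 ± 0.489, adjusted p = 0.00397) were higher in KO22, and *Cxcl12* was lower (-2.56 ± 0.287, adjusted p = 0.000106). *Cxcl5*, *Ccl7* and *Cx3cl1* did not pass (adjusted p = 0.35, 0.509 and 0.138). These calls rest on few libraries. Without KO26 replicate 1 the count higher was 3, and *Cxcl3*, *Il6* and *Lif* lost the call (adjusted p = 0.145, 0.198 and 0.055). The count was 4 with the KO22 and KO26 libraries alone (adjusted p = 0.0535 for *Cxcl3* and 0.0698 for *Il6*) and 4 without KO22 replicate 1, where *Cxcl3* was at 1.81 (adjusted p = 0.0511) and *Il6* at 1.16, under the limit on fold change (adjusted p = 0.0036). These comparisons and those with WT share libraries and are not independent.

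Each series alone holds few libraries, so the size of the KO22 difference was set out by series from mean CPM with 0.5 CPM added. In series 8995, with 1 library each of WT and KO22 and so no test, the log2 ratios of KO22 to WT were 4.34 for *Cxcl1*, 3.66 for *Cxcl2*, 3.23 for *Cxcl3*, 5.63 for *Il6* and 4.36 for *Lif*. In series 9262, with 3 WT and 2 KO22 libraries, they were 1.83, 1.70, 2.10, 1.36 and 2.07 in the same order. All 5 genes were higher in KO22 in both series, and the call held for each of them in series 9262 alone. The ratio of *Cxcl12* was -2.25 in series 8995 and -2.98 in series 9262.

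*Cxcl5* changed direction between the series. WT went from 66.7 CPM in series 8995 to between 334 and 447 CPM in series 9262, while KO22 went from 371 to 154 and 164 CPM, so the log2 ratio of KO22 to WT was 2.46 in the first and -1.28 in the second. *Cx3cl1* also changed sign, with 0.29 and -0.69. *Ccl2* (1.35 and 0.73) and *Ccl7* (-0.35 and -0.07) did not.

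An interaction term, added after the data had been seen, tested whether the KO22 difference was the same in both series. It passed an adjusted p under 0.05 for 8 of the 10 genes, and for 26.6% of the 20455 genes tested. The difference was smaller in series 9262 by 4.59 ± 0.265 on the log2 scale for *Il6* (adjusted p = 3.87e-10), and the values were -3.77 ± 0.216 for *Cxcl5* (adjusted p = 3.87e-10), -2.55 ± 0.219 for *Cxcl1* (adjusted p = 6.64e-08) and -2.40 ± 0.280 for *Lif* (adjusted p = 2.96e-06). *Cxcl3* and *Ccl7* did not pass (adjusted p = 0.0954 and 0.285). The series 8995 side of this test rests on 1 library a group, and the spread comes from series 9262 alone.

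Over all 9 libraries with the line as a term, 1 of the 10 genes was called higher in series 9262 than in 8995, *Ccl2* (1.29 ± 0.166, adjusted p = 0.00334), beside 1.91% of all 20737 genes. Without WT replicate 1 or either KO26 replicate *Ccl2* was just under the limit on fold change (1.16, 1.19 and 1.19, adjusted p = 0.0142 to 0.0303) and none was called, and 5 were called without KO22 replicate 1. *Ccl7* was 0.88 ± 0.132 higher (adjusted p = 0.00555, under the limit on fold change).

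**Figure D3:**
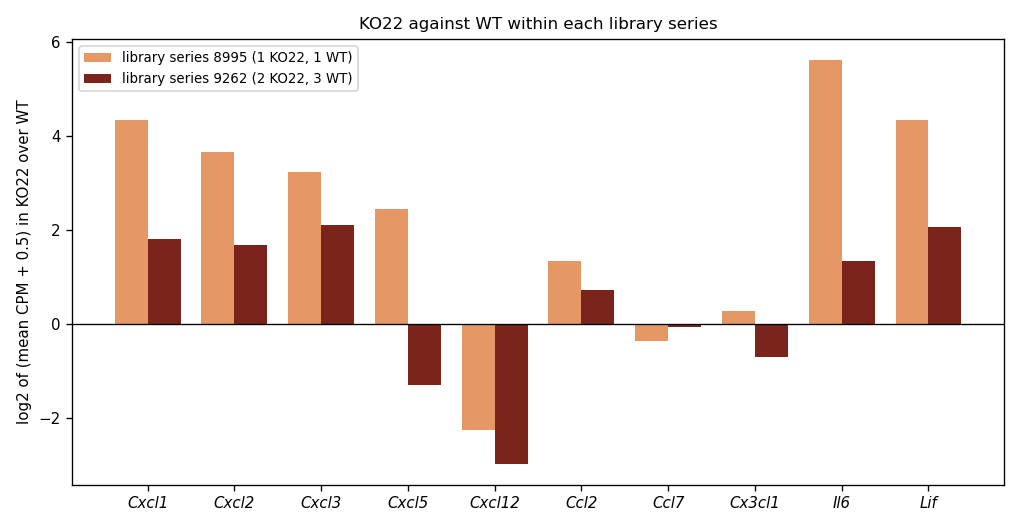
Log2 ratio of KO22 to WT mean CPM (0.5 CPM added to both) for each gene within library series 8995 (1 library each) and 9262 (2 KO22, 3 WT). Cxcl1, Cxcl2, Cxcl3, Il6 and Lif are above 0 and Cxcl12 below 0 in both; Cxcl5 is at 2.46 in series 8995 and -1.28 in series 9262.

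Across the 9 mRPE libraries, which share lines and series, *Cxcl1* followed *Cxcl2* (Pearson r = 0.954 of log2 CPM), *Il6* (0.908), *Cxcl3* (0.825) and *Lif* (0.823) more closely than *Cxcl5* (0.554), and ran against *Cxcl12* (-0.734). The genes most like *Cxcl1* among all tested were *Gm49524*, *Igf2bp2* and *Mtmr7* (r = 0.997, 0.996 and 0.991), with 364 genes over 0.9. Those most like *Il6* were *Nfil3*, *Gm55977* and *Nopchap1* (0.988, 0.984 and 0.980), those most like *Ccl2* were *Cox20*, *Dclre1c* and *Nptn* (0.982, 0.973 and 0.973), and those most like *Cxcl12* were *Mrgpre*, *Bbof1* and *B830012L14Rik* (0.997, 0.995 and 0.993), with 1365 genes over 0.9. With 3 lines and 2 series behind 9 libraries, these values describe the libraries.

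Other genes of these pathways were followed from 10 lists, of which 71 genes were tested in KO22 against WT. Together 14 rose and 8 fell (14 and 7 with DESeq2), or shares of 19.7% and 11.3%, beside the 11.4% and 13.8% of all genes, and the counts of the single lists below are each of few genes and are to be read against those same shares. Of 6 other CXC chemokines tested in KO22 against WT, 3 rose and 2 fell (1 fell with DESeq2). *Cxcl10*, an interferon-induced ligand of Cxcr3, went from 146 ± 97.5 CPM in WT (SD, n = 4) to 929 ± 446 in KO22 (n = 3) and rose by 3.28 ± 0.456 on the log2 scale (adjusted p = 0.00028). *Cxcl11*, of the same kind, rose by 2.85 (adjusted p = 0.000378) from 0.476 CPM, and *Cxcl16*, a membrane-bound chemokine, rose by 1.94 (adjusted p = 0.000147). *Cxcl11* was at 0.346, 5.74 and 3.18 CPM in KO22 libraries 1 to 3 and overlapped WT. *Cxcl15* (-3.12, adjusted p = 0.00237) and *Ppbp* (-1.202, adjusted p = 0.00486) fell, *Cxcl15* to 4 counts in all of KO22 against 47 in WT. Of 5 other CC chemokines tested 2 rose and 1 fell. *Ccl5*, a ligand of Ccr1, went from 4.81 ± 2.69 to 57.4 ± 30.5 CPM (3.80 ± 0.190, adjusted p = 9.34e-07), *Ccl9*, a Ccr1 ligand, from 1.85 ± 0.166 to 11.9 ± 1.84 CPM (2.67 ± 0.193, adjusted p = 6.12e-06), and *Ccl28* fell by 1.65 (adjusted p = 0.00444). The interferon-induced chemokines also differed by series. *Cxcl9*, *Cxcl10*, *Cxcl11* and *Ccl5* were called higher in series 9262 than in 8995 (log2 fold changes 3.76, 2.19, 3.17 and 1.68). In KO26, *Cxcl9* (3.15, adjusted p = 0.00491) and *Cxcl11* (2.96, adjusted p = 0.0148) were the chemokines called against WT with edgeR. *Cxcl9* was at 2.1 and 24.3 CPM in the 2 KO26 libraries and at 0.24 to 4.22 CPM in WT. *Cxcl11* was at 0.65 and 4.05 CPM in KO26 and at 0.04 to 0.93 CPM in WT, so both genes overlapped WT. Between KO22 and KO26 *Cxcl11* did not differ (-0.14, adjusted p = 0.841). *Cxcl10* (1.61, adjusted p = 0.087) and *Ccl5* (1.18, adjusted p = 0.0896) did not pass in KO26 against WT. *Ccl9* was under the limit on fold change there (1.17, adjusted p = 0.028). *Cxcl10*, *Ccl5* and *Ccl9* were called higher in KO22 than in KO26 (1.64, 2.57 and 1.50).

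The conventional receptors named above for these chemokines (Cxcr2, Cxcr4, Ccr2 and Cx3cr1) were not listed in mRPE, and other receptors that they may bind were not matched to them here. *Cxcr1*, *Cxcr2*, *Cxcr4*, *Ccr2* and *Cx3cr1* were among 12 of 18 chemokine receptors not listed there. Of the 5 tested in KO22 1 was called, *Ccr1*, with 186 counts in KO22 against 3 in WT, a ratio of 87.6 (95% interval 29.5 to 429, counting error only). KO26 had 0 counts of *Ccr1*, so KO22 was at least 41.4-fold higher against a floor of 3 counts over the group. Of 3 atypical receptors 2 rose. *Ackr3*, the scavenger of Cxcl12, rose from 15.6 ± 1.08 to 63.9 ± 36.0 CPM (1.86 ± 0.238, adjusted p = 0.000169), in the same libraries in which *Cxcl12* fell, and was at 10.6 ± 0.943 CPM in KO26. *Ccrl2*, which binds chemerin, rose by 1.28 (adjusted p = 0.0425).

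Of 7 receptor chains of the IL-6 family tested in KO22, 3 fell and 1 rose. *Il6st*, the shared gp130 chain, fell from 1177 ± 54.7 to 354 ± 26.7 CPM (-1.74 ± 0.120, adjusted p = 4.77e-06) and *Lifr* from 317 ± 85.2 to 113 ± 29.5 CPM (-1.40 ± 0.148, adjusted p = 5.51e-05). *Cntfr*, the chain for ciliary neurotrophic factor, fell by 2.55 from a low level of 1.71 CPM (adjusted p = 0.00134), and *Il27ra* rose by 1.86 (adjusted p = 0.00086). *Il6ra* (-0.72, adjusted p = 0.00702) and *Il11ra1* (-0.89, adjusted p = 0.000454) were under the limit on fold change, and *Osmr* did not pass the test (-0.22, adjusted p = 0.278). In KO26 *Il6st* was at 693 ± 51.6 CPM (-0.77, adjusted p = 0.0193, under the limit), *Lifr* at 308 ± 185 CPM (0.09, adjusted p = 0.815), and *Cntfr* rose (1.97, adjusted p = 0.0166). Of 5 other IL-6 family cytokines tested in KO22 2 rose, among them *Il11*, from 0.124 to 0.559 CPM (2.11, adjusted p = 0.00673).

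**Figure D4:**
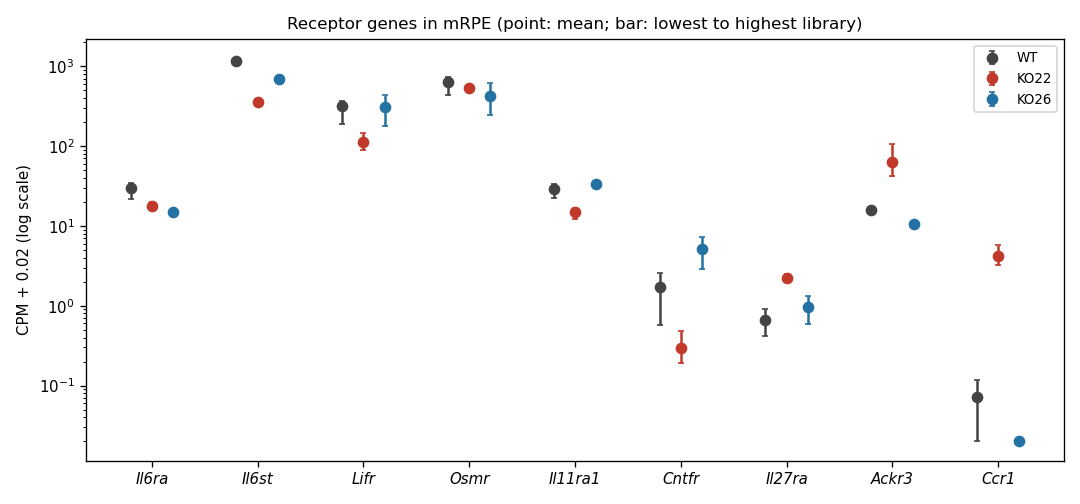
CPM of receptor genes in WT, KO22 and KO26 mRPE on a log axis (0.02 CPM added), with the mean as the point and the lowest to highest library as the bar. Il6st and Lifr are lower and Ackr3 and Ccr1 higher in KO22 than in WT.

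Of 14 genes of the JAK/STAT3 pathway and its feedback tested in KO22, 0 rose (edgeR and DESeq2; 6 of the 14 were at an unadjusted p under 0.05, as were 58.4% of all genes) and 2 fell, *Il4ra* (-1.49, adjusted p = 2.31e-05) and *Pim1*, a kinase induced by STAT3 (-1.34, adjusted p = 0.000792). *Socs3*, the feedback inhibitor that gp130 signalling induces, was at 15.3 ± 1.33 CPM in WT and 31.5 ± 12.2 CPM in KO22 (0.96 ± 0.186, adjusted p = 0.00204, under the limit on fold change), and *Stat3* was at 92.9 ± 3.24 and 107 ± 15.4 CPM (0.18, adjusted p = 0.161).

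Another list held cytokines known to induce some of these genes and their receptor chains. It also held the Toll-like receptors *Tlr2* and *Tlr4* and the signalling adaptors *Myd88* and *Traf6*. Of its genes, 2 of 11 tested rose and 0 fell in KO22, beside 11.4% of all genes called higher and 13.8% lower. *Il1a*, which encodes interleukin-1 alpha, was at 6 counts over the 4 WT libraries and 203 counts over the 3 KO22 libraries, a ratio of 47.8 (95% interval 21.6 to 132, counting error only), and at 2 counts in KO26. *Il1rap*, the accessory chain of the interleukin-1 receptor, rose from 16.2 ± 4.72 to 48.6 ± 6.50 CPM (1.69 ± 0.177, adjusted p = 5.17e-05), while *Il1r1*, the binding chain, was at 121 ± 25.9 and 119 ± 16.9 CPM (0.03, adjusted p = 0.829). *Il1b*, *Tnf* and *Il17a* were not listed in mRPE. Of 10 regulators of cytokine mRNA decay and of NF-kappaB, 0 passed both limits in KO22 (edgeR and DESeq2), while 8 were at an unadjusted p under 0.05 (58.4% of all genes were). *Elavl1*, an RNA-binding protein that stabilises such transcripts, was 1.05 ± 0.097 higher (adjusted p = 2.47e-05), and *Zfp36l1*, a decay factor, was at -0.74 ± 0.106 (adjusted p = 0.000322), both under the limit on fold change. Other decay factors of the list went both ways, also under that limit. *Zfp36* was at -0.60 (adjusted p = 0.0117), *Khsrp* at 0.80 (adjusted p = 0.0019) and *Rc3h1* at 0.43 (adjusted p = 0.0197). Of 5 enzymes that cut chemokines 1 rose, the gelatinase gene *Mmp9* (1.29, adjusted p = 0.00317), which was also higher in KO26 (2.02, adjusted p = 0.00859).

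Marker sums moved with the line as well. The summed fibroblast markers were at 7674 to 10548 CPM in WT, 4034 to 6760 CPM in KO22 and 11974 to 13074 CPM in KO26. The summed endothelial list was at 152 to 236, 3.26 to 4.54 and 55.9 to 73.6 CPM in the same order, with its defining markers *Cdh5* and *Tie1* not listed or at the floor in all 9. Their part in the values of the 10 genes was not tested. The summed macrophage markers were at 3.73 to 5.10 CPM in WT 4.15 to 5.93 CPM in KO22 and 6.87 to 7.06 CPM in KO26, with *Ptprc*, *Adgre1*, *C1qa* and *C1qb* not listed or at the floor.

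In RPE/choroid the listed genes of the group were at low levels and none passed the test. All 8 listed genes were tested and 0 passed both limits in either direction (edgeR, 0 also with DESeq2). Of all 24926 genes tested, 0.189% passed both limits with edgeR, all of them lower. At an unadjusted p under 0.05 (edgeR) were 3 of the 8, and 8.3% of all genes. Fewer cells of a type and less RNA per cell cannot be told apart in such tissue.

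*Ccl2* was at 1.08, 1.07 and 0.641 CPM in WT replicates 1 to 3 and at 1.92, 1.89 and 2.06 CPM in *Prom1*-KO. The groups did not overlap, but the difference of 1.07 ± 0.263 on the log2 scale failed the correction (adjusted p = 0.258, edgeR), and DESeq2 gave an adjusted p of 0.0369 for it, under the limit on fold change (over all settings tried, 0.0369 to 0.599). *Cxcl1* was at 0.449, 0.440 and 0.554 CPM in WT and 0.990, 0.588 and 1.09 CPM in *Prom1*-KO, with no overlap but adjusted p = 0.54 (0.87 ± 0.331). *Cx3cl1* was at 6.64, 6.75 and 7.05 CPM in WT and 4.83, 4.75 and 3.25 CPM in *Prom1*-KO, higher in every WT library (-0.67 ± 0.181, adjusted p = 0.331).

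In the other listed genes, given next, the groups overlapped. The share of all genes tested whose groups did not overlap was not counted here. *Cxcl12* was at 30.7 to 53.2 CPM in WT and 35.4 to 56.2 CPM in *Prom1*-KO (0.10 ± 0.246, adjusted p = 0.954). *Cxcl5* was at 1.14 to 3.05 and 0.980 to 2.98 CPM, and *Lif* at 0.321 to 0.609 and 0.464 to 0.702 CPM. *Cxcl2* and *Ccl7* stood on 2 to 25 counts a library, and their differences were not detectable at this depth (KO over WT from summed counts, 1.18 with a 95% interval of 0.637 to 2.16 for *Cxcl2* and 1.02 with 0.614 to 1.67 for *Ccl7*, counting error only). Leaving out *Prom1*-KO replicate 3 called none of the 8 genes. Of 98 other genes of the lists tested, 0 passed both limits with edgeR, where 0.189% of all genes did. At an unadjusted p under 0.05 (edgeR) were 16 of the 98, or 16.3%, beside 8.3% of all genes. DESeq2 called 3 of the 98 higher and 0 lower, beside 83 higher and 184 lower of all genes. Among the 3 were *Ccl5* and *Lrg1*, named here after their values were seen, and a chemokine receptor gene.

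RPE markers differed in the same tissue libraries, while no gene of the other marker lists passed both limits. Of 6 RPE markers 3 fell, and their sum was at 1372 to 2237 CPM in WT and 82.9 to 206 CPM in *Prom1*-KO. The summed endothelial markers were at 56.5 to 116 and 27.2 to 50.0 CPM, the summed T cell markers at 0.930 to 0.991 and 1.50 to 2.43 CPM, and the summed macrophage markers at 242 to 307 and 202 to 287 CPM. The macrophage sums overlapped, while *Ptprc* of that list was at 11.35 to 17.7 CPM in WT and 18.3 to 24.0 CPM in *Prom1*-KO. The median log2 fold change of the macrophage list was 0.22. The summed melanocyte and Schwann markers were at 362 to 577 CPM in WT and 615 to 701 CPM in *Prom1*-KO. *Sox10* of that list did not follow the sum, at 22.5 to 34.1 CPM in WT and 13.4 to 27.0 CPM in *Prom1*-KO. The median log2 fold change of the melanocyte and Schwann list was -0.14. The summed photoreceptor markers varied within each group, at 35.8 to 998 CPM in WT and 17.6 to 485.5 CPM in *Prom1*-KO. The neutrophil, fibroblast, pericyte and smooth muscle, and mast cell sums overlapped between the groups. The part of these marker differences in *Ccl2*, *Cxcl1* and *Cx3cl1* was not tested.

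**Figure D5:**
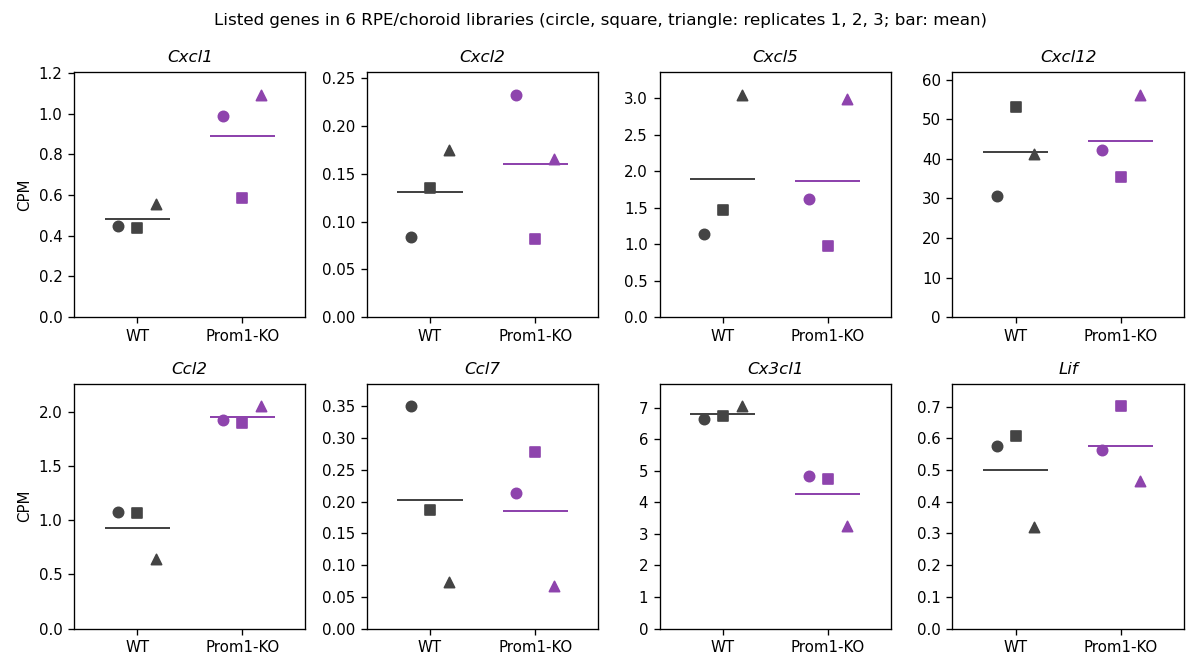
CPM of the 8 listed genes in the 6 RPE/choroid libraries, by group, with replicates 1, 2 and 3 as circle, square and triangle and the mean as a bar. Ccl2 and Cxcl1 lie higher and Cx3cl1 lower in every Prom1-KO library than in every WT library; none of the 8 passed the adjusted test.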

How the data were processed

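RNA-seq of 9 mRPE and 6 RPE/choroid libraries was used, grouped by the sample labels. The deposited values are raw counts per gene, which the authors made from reads trimmed by Trim Galore 0.6.7 and mapped with STAR on mm39; the submitters' processing notes name these and DESeq2 1.42.0 for all samples. Of the listed genes, 20737 of 20910 in mRPE and 24926 of 25038 in RPE/choroid had at least 5 counts in at least 3 libraries, so few rarer genes are listed. The methods and the labels name different stranded library kits. The authors' normalized counts were not used, and whether the counting used strand is not given in the sources used here.

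The raw counts were tested by quasi-likelihood in edgeR 4.0.16 under R 4.3.3 (TMM, at least 5 counts in at least 3 libraries, library series as a term in mRPE, Benjamini-Hochberg over all genes). A call needed an adjusted p below 0.05 and a log2 fold change beyond 1.2 in either direction. KO22 was fitted with WT (7 libraries), the other mRPE comparisons over all 9, and RPE/choroid alone. The standard error was taken as the size of the log2 fold change over the root of the F statistic. CPM are on the TMM scale, and total counts ranged from 8076188 to 61766179. A floor of 3 counts was used, and intervals at 95% cover counting error only. Levels per kilobase and positions used GENCODE on GRCm39. Rows without a gene symbol (197 and 249) stayed in under their identifier. The method was tested on simulated data before use. The 10 genes and all lists were chosen with earlier results of these data known, and all 10 genes, each list's called genes (at most 4 a direction), the first gene of each marker list, *Prom1* and the 3 most similar genes of *Cxcl1*, *Ccl2*, *Il6* and *Cxcl12* were to be named. Other list members with values are named for their role. Alternatives were DESeq2's size factors and test, other count filters, no fold limit, no series term, other libraries in the fit, and each library left out. The protein motif search was not run. Some members of the lists are counted but not reported here by name.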

Additional observations from a re-analysis of the deposited data

Results flagged for a closer look

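In the WT mRPE group of 4 libraries, replicate 1, the only WT library of series 8995, lay far below the other 3 for 3 of the 10 genes. Its *Cxcl1* was at 19.6 CPM where the others were at 39.2 to 39.8, its *Ccl7* at 61.9 where they were at 108 to 116, and its *Cx3cl1* at 11.7 where they were at 13.6 to 14. The gap was set against Dixon's 95% critical value, which chance passes in about 1 in 20 groups, and 10 groups of 4 were looked at. *Cxcl1* in KO22 was called without this library, at 1.82 on the log2 scale.

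The effect in KO22 and the effect in KO26, each against WT, were compared by the test of the difference in the fit over 9 libraries. They differed past both limits for 7 of the 10 genes, with 6 higher and 1 lower in KO22. Of all 20737 genes tested, 7.56% were higher and 10.7% lower at the same limits. KO22 minus KO26 was 3.95 on the log2 scale for *Cxcl1*, 4.80 for *Cxcl2*, 3.21 for *Cxcl3*, 1.90 for *Ccl2*, 3.21 for *Il6* and 2.37 for *Lif*, and -2.56 for *Cxcl12* (adjusted p = 0.000106 to 0.0208, edgeR). *Cxcl2* in KO26 rests on 5 counts. *Cxcl3*, *Il6* and *Lif* lost the call without KO26 replicate 1, *Cxcl3* and *Il6* also with the libraries of the 2 lines alone (adjusted p = 0.0535 and 0.0698) and without KO22 replicate 1 (1.81 and 1.16 on the log2 scale).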

How the results depend on the processing

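In KO22 against WT, the 5 genes that rose kept that count under every alternative that kept the fold limit (6 without it, with *Ccl2*), and *Cxcl12* stayed called throughout. A second gene, *Cxcl5*, was called lower with series 9262 alone (2 lower; *Cxcl5* -1.28, adjusted p = 3.37e-09, over all settings 1.54e-09 to 0.908), and the count lower was 1 to 2 with a library left out, 2 without WT replicate 1 or KO22 replicate 1. *Cxcl5* turned to 0.29 in a fit over 9 libraries and to 2.46 in series 8995, where *Cx3cl1* turned to 0.29. Leaving out a library put *Cxcl5* between -1.30 and 0.35. In KO26 against WT, 1 gene was lower without the fold limit, *Cxcl2* turned to 0.0458 and *Il6* to 0.88 in series 8995, *Il6* to 0.34 with WT and KO26 alone, and *Cxcl12* to 0.24 in series 9262; leaving out a library moved *Cxcl3* from -0.32 to 2.35, *Cxcl12* from -0.92 to 0.31, *Cx3cl1* from -0.33 to 0.64 and *Il6* from -1.51 to 0.37. In KO22 against KO26 the count higher was 3 to 7 with a library left out (3 without KO26 replicate 1, 7 without KO26 replicate 2), *Cxcl5* -0.51 to 3.46 and *Ccl7* -0.0685 to 0.35. In series 9262 against 8995 the count higher was 2 without the fold limit, 4 with WT alone and 0 to 5 with a library left out (0 without WT replicate 1 or either KO26 replicate, 5 without KO22 replicate 1). In RPE/choroid no call appeared, and leaving out a library moved *Cxcl2* from -0.18 to 0.62, *Cxcl5* from -0.56 to 0.49, *Cxcl12* from -0.12 to 0.31, *Ccl7* from -0.46 to 0.60 and *Lif* from -0.0219 to 0.37. DESeq2 called 83 genes higher and 184 lower in RPE/choroid where edgeR called 0 and 47, and 268 lower in KO26 where edgeR called 149. The cause was not tested, except that fewer libraries enter where some are left out. No paired analysis was possible because the labels give no replicate numbers that the groups share; the library series, which they do share in mRPE, was a term of the fits.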
